A study of Drosophila melanogaster with 6 samples.

Results

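The peaks described here are Klumpfuss (Klu) binding regions that lay entirely within the body of 1 gene shorter than 20000 bp. They were taken from the coherent peak set by position: 1 listed gene had to lie at distance 0, the peak had to start and end within the listed bounds of that gene, and those bounds had to span less than 20000 bp. Of 1122 distinct peaks, 314 (28.0%) met this rule, in 297 genes. No read count entered the choice. The other peaks were 228 inside genes of 20000 bp or more, 214 that crossed the edge of 1 gene, 253 that touched 2 or more genes and 113 with no listed gene at distance 0.

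Klu binding was profiled by targeted DamID in Esg-positive stem and progenitor cells of the Drosophila midgut, in triplicate for the fusion (Klu-Dam) and for the methylase without Klu (Dam-only). The Klu-Dam flies carried esgts (esg-Gal4 with a temperature-sensitive Gal80), UAS-Flp and a transgene labelled UAS-Klu Dam, and the control flies carried esgts and UAS-Flp with Dam by itself. By the methods of the study, the fusion was cloned behind a minimal heat shock promoter and a stop cassette, so that Flp was the part under UAS control. Flies were kept at 18 °C and shifted for 24 h, so that Flp, under esg-Gal4, removed a stop cassette in front of the methylase. By the labels DNA came from 30 to 40 whole midguts per sample, a range whose upper end is larger in the methods of the study, and the replicate sets were isolated on different dates. No cells were sorted: the cell type rests on the esg driver alone, and cells that arose from a progenitor within that time would keep the active cassette. The age and sex of the flies were not given in the sources used here. Read counts were used for the 3 Klu-Dam libraries only. No value below is set against the methylase alone, and the peaks are taken as called.

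In DamID, a bacterial adenine methylase is fused to a DNA-binding protein and marks GATC sites close to where that protein sits. Methylated fragments are then cut, amplified and sequenced, so the smallest unit that can be resolved is the fragment between neighbouring GATC sites. Klu is a zinc-finger transcription factor related to the vertebrate protein WT1, and it is known from neural progenitors of the fly as well. Esg-positive cells of the midgut are the intestinal stem cells and their enteroblast daughters, which give rise to absorptive enterocytes. A transcription factor can occupy introns and exons as well as promoters. A peak wholly inside a gene is therefore a binding region within transcribed sequence, which may or may not include an internal transcript start.

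The edges of all 314 peaks fell on GATC sites of the Release 6 genome. The edges of the peak with the highest read level, which ran on X from 2348266 to 2350797, are shown because they display this unit. Capitals mark the GATC at the start of the peak (chrX:2348246-2348285, in a coding exon) and at its end (chrX:2350778-2350817, in an intron), both on the plus strand.
left edge: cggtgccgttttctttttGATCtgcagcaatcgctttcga
right edge: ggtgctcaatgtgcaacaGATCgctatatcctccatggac

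Recognition sequences known for vertebrate WT1 and EGR1 share the letters GCGTGGG. The study itself searched its peaks with published matrices of Klu binding, which were not printed in the sources used here. GCGTGGG is a substitute for them, so the shares below are not shares of peaks with a Klu motif. These letters were searched on both strands in the 1000 bp around the midpoint of each peak, a window that ran past both edges of the 75 peaks narrower than this. The 5 highest peaks on X, 2L, 3L or 3R that held a match outside UTRs are shown with 50 bp on either side, on the plus strand, to let the surroundings of the match be read. Capitals mark the match, as GCGTGGG or as its reverse complement CCCACGC. The windows were chr2L:1137346-1137452 in an intron of CG4577, chr2L:3364513-3364619 in a coding exon of CG34394 (GramD1B in the reference), chr3L:5760071-5760177 in a coding exon of Ubp64E (Usp47), chr2L:5998736-5998842 in an intron of lid (Kdm5) and chr3L:13444372-13444478 in a coding exon of CG10732 (cmb).
CG4577 match: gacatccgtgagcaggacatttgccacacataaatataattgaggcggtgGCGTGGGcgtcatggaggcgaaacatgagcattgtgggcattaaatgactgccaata
CG34394 match: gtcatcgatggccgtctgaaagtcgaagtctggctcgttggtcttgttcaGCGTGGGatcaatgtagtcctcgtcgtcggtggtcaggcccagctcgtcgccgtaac
Ubp64E match: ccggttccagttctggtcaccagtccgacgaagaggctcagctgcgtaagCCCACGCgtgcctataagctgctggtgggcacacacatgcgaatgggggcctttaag
lid match: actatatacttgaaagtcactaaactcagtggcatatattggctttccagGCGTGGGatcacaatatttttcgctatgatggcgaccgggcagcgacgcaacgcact
CG10732 match: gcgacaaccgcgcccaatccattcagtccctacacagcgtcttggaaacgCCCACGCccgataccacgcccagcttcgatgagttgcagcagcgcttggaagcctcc

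In lid and CG34394 the match ran straight into a GATC, the letters being GCGTGGGatc, so that the motif and a Dam site shared bases. The other 3 windows held no GATC. Of the 314 peaks, 44 (14%) held GCGTGGG in this window. In 40 of the 44 the called peak itself held these letters, and in CG5001, CG14591, Pdk1 and CG9467 it did not. The share was 11.4% for peaks inside longer genes, 8.41% for peaks crossing 1 gene edge, 8.70% for peaks touching several genes and 11% for all 1122 peaks. Of 133586 adjoining windows of 1000 bp along the chromosome arms, 7.45% held these letters, and of the 31360 such windows that lay wholly inside protein-coding genes under 20000 bp, 9.01% did. The share in the peaks was above both window shares, but the windows were not matched to the peaks for GC content or coding sequence. It was 15.6% in the 154 peaks centred in coding exons, whose median GC content was 52%. In the 133 peaks centred in introns, with a median GC content of 44.5%, it was 11.3%. These shares are descriptions with no test, since peaks within a gene and neighbouring windows are not independent.

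The host genes were mostly mid-sized. Their listed length ran from 908 to 19931 bp with a median of 7692 bp, and 311 of the 314 peaks lay in a protein-coding gene. The remaining 3 lay in non-coding RNA genes, CR43650, CR43334 and CR42839. Peaks were 358 to 4368 bp wide with a median of 1417.5 bp, against 1697.5 bp over all 1122 peaks, and covered a median of 19.6% of the gene. In 40 cases the peak covered more than 50% of it. The most complete cover was that of hyx (92.1% of 3590 bp), a subunit of the Paf1 elongation complex. The reference gene neur overlapped this peak as well. The peaks lay on X (57), 2L (56), 2R (66), 3L (70) and 3R (65), with 0 of the 3 peaks of chromosome 4.

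The position label was checked against a current annotation. All 314 peaks lay inside the matching reference gene, and for 308 of them that gene was also under 20000 bp. The listed identifier matched the listed place for 297 peaks. For the other 17 the listed identifier was not that of a reference gene overlapping the peak, and the reference gene at the listed place was used. An example is the highest peak, listed as ptr, where the reference annotates CG2841, a gene of 21408 bp and thus 1 of the 6 that were not under 20000 bp there. Another reference gene overlapped 31 of the peaks (9.87%), and 117 of the 314 peaks were listed with further genes at a distance, up to 4 genes in all.

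The 3 Klu-Dam libraries held 4261997, 3933895 and 3764662 reads in these 314 peaks. Levels are given as CPM, reads per 1000000 reads in all coherent peaks of the same library. The 314 peaks took 21.8%, 21.5% and 20.5% of those reads in replicates 1, 2 and 3 (mean 21.3% ± 0.685, SD, n = 3), from 24.1% of the bases that peaks covered. A single count ranged from 65 to 387622 reads, with medians of 2270, 2467.5 and 2698.5 in the 3 libraries, so that counting error was small for nearly all of them. Amplified reads are not independent molecules, and counting error is only part of the error.

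The level was very uneven among the peaks. The mean CPM over the 3 libraries ran from 9.55 to 18122 with a median of 133, and the middle 50% of peaks lay between 64.6 and 348. The 10 highest peaks held 50% of the mean CPM of the group, and 11 of the 50 highest of all 1122 peaks belonged to it. The 4 highest took 35.0%, 31.2% and 27.7% of the group's CPM in replicates 1, 2 and 3.

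The highest peak (ptr as listed, CG2841 in the reference) held 19067, 18230 and 17068 CPM in replicates 1, 2 and 3. It had its midpoint in a 5′ UTR, included 1 annotated transcript start, and differed little between libraries (18122 ± 1004, SD, n = 3). The peak in CG42360 (FBgn0259742, 2R, 24607392 to 24610391) held 19856, 15675 and 14848 CPM and covered 83.8% of that gene, and a second reference gene, CG42361, overlapped it. CG30122 (FBgn0050122, 2R, 18634708 to 18638031) followed with 17898, 16713 and 14331 CPM, centred in coding sequence.

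The peak in otk (FBgn0004839, 2R, 12003498 to 12005921) held 19673, 16607 and 10612 CPM. otk encodes off-track, a receptor-like transmembrane pseudokinase, and its level in replicate 3 was the lowest of the 3 libraries by a wide margin. In ara (FBgn0015904, 3L, 12583670 to 12586080), which encodes the Iroquois homeodomain factor araucan, the level was 12708, 11647 and 8345 CPM, with 85.9% of the peak in introns. kel (FBgn0001301, 2L, 18134226 to 18135928), the kelch protein of ovarian ring canals, held 7671, 7879 and 7018 CPM. The order of the 4 highest was not the same in each library, whereas ara lay below all 4 and kel below ara in every library.

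Beneath these, NKAIN, a homologue of the vertebrate proteins that bind the sodium pump, held 8559, 7758 and 6052 CPM with its midpoint in the 3′ UTR. CG17912 (BuGZ), a zinc-finger gene, held 5986, 6204 and 4371 CPM in a peak near the 5′ end of the gene. drpr, the engulfment receptor Draper, held 4662, 6213 and 4744 CPM with 82.5% of the peak coding. In every library drpr lay below kel and CG17912 below NKAIN, whereas kel and NKAIN changed places between libraries, as did CG17912 and drpr.

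In the remaining 3 of the 12 highest, replicate 3 gave the highest value. koi, the SUN-domain protein klaroid of the nuclear envelope, held 4105, 4755 and 5308 CPM across a peak with 2 annotated transcript starts. Gclc, the catalytic subunit of the enzyme that starts glutathione synthesis, held 3278, 4711 and 5456 CPM in a peak that was 93.8% coding. CG13004 held 2512, 3070 and 6118 CPM, and the value in replicate 3 was 2.19 times the mean of the other libraries.

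**Figure D1:**
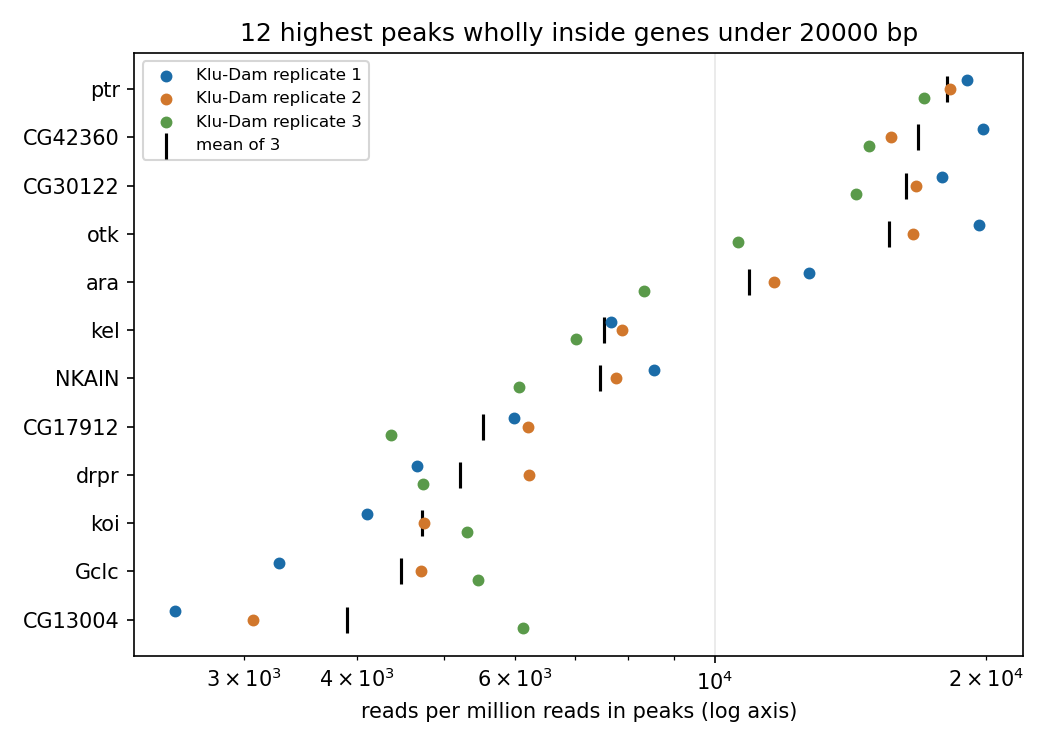
CPM (log axis) of the 12 highest peaks wholly inside genes under 20000 bp, with 1 point for each Klu-Dam replicate and a bar for the mean of 3. The 4 highest lie between 10612 and 19856 CPM, and in CG13004 replicate 3 stands apart at 6118.

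At the other end, CG13384 held 11, 14.1 and 3.54 CPM, the lowest mean of the group (9.55 ± 5.43, SD, n = 3), and its replicate 3 count of 65 reads was the lowest of any coherent peak. The next lowest were Crag, an activator of Rab GTPases (12.7 ± 1.30), CG14591 (14.3 ± 2.35), GXIVsPLA2, a secreted phospholipase A2 (14.9 ± 0.928), and APC7, a subunit of the anaphase-promoting complex (18.7 ± 3.92, each SD, n = 3). These 5 peaks were 358 to 520 bp wide, well under the median width.

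**Figure D2:**
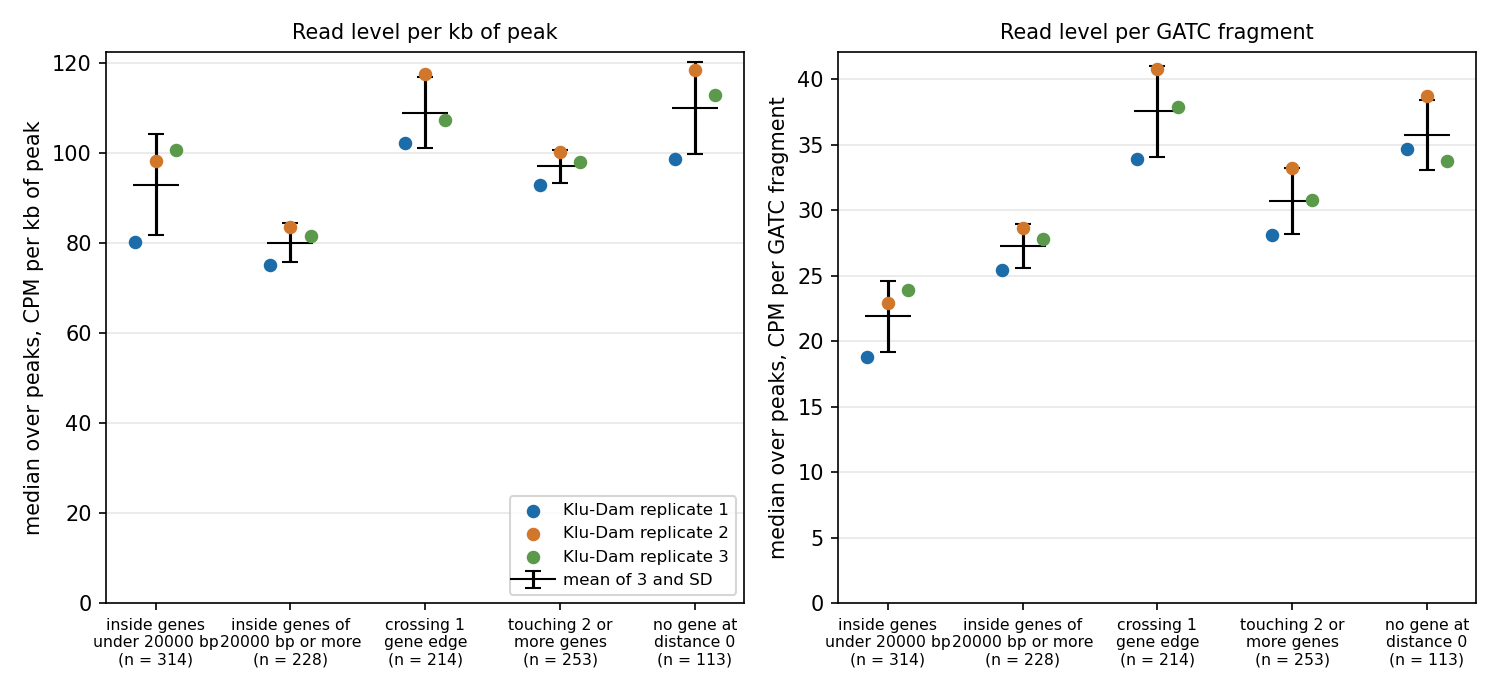
Median read level of each class of peaks in each Klu-Dam replicate, per kb of peak (left) and per GATC fragment (right), with the mean of 3 and its SD. Peaks inside genes under 20000 bp lie above those inside longer genes per kb (93.0 against 80.0 CPM) and below them per fragment (21.9 against 27.3).

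Because the peaks differed in width, classes were compared by the median CPM per kb of peak in each library. It was 80.2, 98.2 and 101 CPM per kb for the 314 peaks. For peaks inside longer genes it was 75.2, 83.5 and 81.5, and the difference on the log2 scale was 0.09, 0.23 and 0.30 (mean 0.21 ± 0.11, SD, n = 3, exact sign-flip permutation p = 0.25, adjusted 0.375 over 3 comparisons, two-sided). With 3 libraries 0.25 is the smallest p this test allows, so no difference between classes could pass 0.05.

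Against peaks that crossed the edge of 1 gene the difference was -0.35, -0.26 and -0.09 (mean -0.23 ± 0.13, SD, n = 3, exact permutation p = 0.25, adjusted 0.375), lower in each library. Against peaks that touched several genes it was -0.21, -0.03 and 0.04 (mean -0.07 ± 0.13, SD, n = 3, exact permutation p = 0.75, adjusted 0.75), with no common sign. The direction against longer genes depended on the unit. The 314 peaks held 3.35 GATC sites per kb, the peaks inside longer genes 2.53 and all peaks 2.90. Counted per GATC fragment, the median level of the 314 was lower than that inside longer genes in each library, with a mean log2 difference of -0.32 (exact permutation p = 0.25, n = 3). It was then also lower than in peaks crossing 1 edge (-0.78) and in peaks touching several genes (-0.49).

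The peaks lay in coding sequence more than their genes did. Of the bases in the 314 peaks, 47.2% were coding exon, 43.8% intron, 3.19% 5′ UTR, 5.07% 3′ UTR and 0.788% non-coding exon. In the whole bodies of the same 297 genes coding exons made up 30.0% and introns 51.9%, while 5′ UTRs were 6.56% and 3′ UTRs 10.5%. The share of coding exon was thus 1.57 times that of the gene bodies, and both UTRs stood at less than 0.5 times theirs.

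The rule bears on these shares, since a peak that must lie within a gene cannot be centred on either of its ends. Averaged over every placement of each peak within its own gene, 39.9% of bases would have been coding. Set against the placement mean in its own gene, the coding sequence of a peak was higher in 189 of the 314. GATC sites are themselves unevenly spread: of the 9713 sites in these genes, 48.1% lay in coding exons, close to the 47.2% of the peak bases. In longer genes, for the 224 of 228 peaks that could be matched to the reference, the same quantities were 20.0% of peak bases, 9.21% of gene bodies, 11.3% over all placements and 19.3% of GATC sites. No test was made of these shares.

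**Figure D3:**
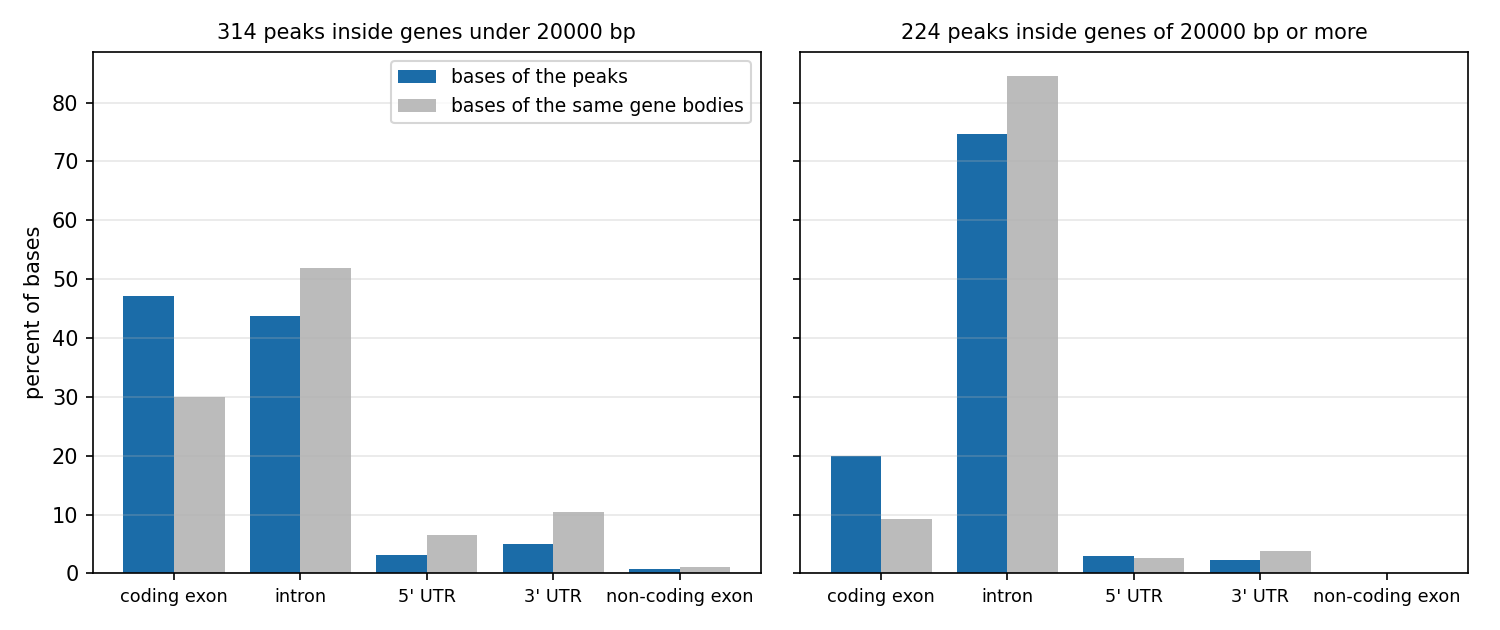
Percent of bases in each annotated feature, for peaks (blue) and for the whole bodies of the genes that hold them (grey), in genes under 20000 bp (left) and longer genes (right). Coding exons take 47.2% of peak bases against 30.0% of gene bodies in the shorter genes, and 20.0% against 9.21% in the longer.

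By midpoint, 154 peaks lay in a coding exon, 133 in an intron, 14 in a 3′ UTR, 10 in a 5′ UTR and 3 in a non-coding exon. In 35 peaks every base was coding, as in CG3523 (FASN1, fatty acid synthase) and in the lower of the 2 brm peaks, both of which were singled out after their values were seen. In 38 peaks no base was. Peaks centred in coding exons had a median width of 1254.5 bp and a median GC content of 52%, and those centred in introns 1621 bp and 44.5%. Their median level was 88.3, 99.9 and 105 CPM per kb in the 3 libraries, against 66.3, 80.3 and 86.7 for introns.

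The coding-centred peaks were higher per kb in each library, by 0.41, 0.31 and 0.28 on the log2 scale (mean 0.33 ± 0.07, SD, n = 3, exact permutation p = 0.25). Per GATC fragment the order turned, with differences of -0.19, -0.41 and -0.29 (mean -0.30 ± 0.11, SD, n = 3, exact permutation p = 0.25). The coding-centred peaks held 4.58 GATC fragments per kb and the intronic ones 3.45. Peaks centred in an intron held 46.4% of the CPM of the group and those centred in a coding exon 36.7%. With each peak assigned instead to the feature that covered most of its bases, a choice made after seeing the data, the shares were 41.8% and 52.5%, so the order depended on the assignment. By midpoint, 5 of the 12 highest peaks were centred in an intron.

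Within the gene, midpoints were spread widely around a median close to the middle. The median relative position, from 0 at the 5′ end to 1 at the 3′ end, was 0.534, with quartiles of 0.370 and 0.696. With each gene divided into 3 equal parts, 64 midpoints (20.4%) fell in the 5′ part, 148 in the middle and 102 (32.5%) in the 3′ part. The mean over all placements within the genes was 26.1% for each end part and 47.9% for the middle. The 5′ part was thus below and the 3′ part above that mean. In longer genes 32.6% of midpoints lay in the 5′ part and 40.6% in the 3′ part, against 32.5% over placements for each.

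Transcript starts of the host gene were rare in the peaks. An annotated start of the host gene lay inside 32 of the 314 (10.2%), against 9.82% of peaks inside longer genes. Of the midpoints, 26 were within 500 bp of such a start. Starts of the other reference genes that overlapped 31 of the peaks were not counted. The median distance from the midpoint to the nearest start of the host gene was 2285.5 bp. Among peaks with a host gene start inside were ptr and koi of the 12 highest, and lid, Dp, CCHa2, eIF-4a and rin of the pathway lists.

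Replicates 1 and 2 resembled each other more than replicate 3. Across the 314 peaks the SD of the log2 ratio of CPM was 0.26 for replicate 2 over 1, 0.63 for 3 over 1 and 0.56 for 3 over 2. The median CV of a peak over the 3 libraries was 17.2%, against 16.7% over all coherent peaks. Over 2 libraries it was 10.2% without replicate 3, 14.9% without replicate 1 and 19.8% without replicate 2. Replicate 3 gave the highest of the 3 values in 150 peaks (47.8%), compared with 41.4% of all coherent peaks. In 29 of the 314 (9.24%) it was more than 2-fold above the mean of replicates 1 and 2, and in 2 more than 2-fold below. Over all coherent peaks 66 of 1122 (5.88%) were above and 15 below. Inside longer genes the share above was 5.26%, at 1 gene edge 4.21% and at several genes 3.56%.

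The widest of these differences was in Lsd-2 (FBgn0030608, X, 15073097 to 15074478), a perilipin of lipid droplets, with 94.9, 156 and 652 CPM. tay (X, 15884875 to 15885822), known for its role in walking behaviour, held 153, 147 and 671. The 3′ of the 2 peaks in brm (FBgn0000212, 3L, 15970898 to 15972042), the ATPase of the SWI/SNF chromatin remodeller, held 337, 405 and 1541, and its mean of 761 CPM became 371 without replicate 3. In each of the 3 peaks replicate 3 stood more than 4-fold above the mean of the others.

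Cul1, the scaffold of SCF ubiquitin ligases, held 51.1, 61.8 and 224 CPM, and the non-coding RNA gene CR43334 held 60.5, 74.8 and 216. Others among the 29, named after their values were seen, were Pak (24.6, 27.8 and 54.9 CPM), a kinase activated by small GTPases, and hh (132, 144 and 278 CPM), the Hedgehog ligand. The 2 peaks that were more than 2-fold lower in replicate 3 were CG13384, with the lowest mean of the group, and DUBAI, with 104, 125 and 50.2 CPM.

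The GATC fragments of these peaks were short. The mean fragment length of a peak had a median of 238 bp over the 314 peaks and of 173 bp over the 29. Of the 105 peaks with the shortest fragments (up to 189 bp), 19 (18.1%) were over 2-fold higher in replicate 3. Among the 105 with the longest (288 bp or more), 3 (2.86%) were. Over all coherent peaks the order was the same, with 43 of 374 (11.5%) at the shortest fragments and 9 of 374 (2.41%) at the longest. The log2 ratio of replicate 3 to the mean of the others had a Spearman correlation of -0.21 and, against log2 length, a Pearson correlation of -0.24 with mean fragment length over the 314 peaks. Over all 1122 peaks the Spearman value was -0.23. For replicate 2 over replicate 1 the Spearman value was -0.09. These are correlations across peaks that share libraries and sequence composition, and they carry no p. Whether fragment length had a part in the difference was not tested. The replicate sets also came from different dates, which cannot be told apart from replicate number.

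Stretches of 240 bases are shown to let the spacing of GATC sites, in capitals, be read. They were taken where the sites were densest outside UTRs, from the 3 peaks on X, 2L, 3L or 3R that were furthest above the other libraries in replicate 3 (Lsd-2, chrX:15073097-15073336; tay, chrX:15885030-15885269; brm, chr3L:15971358-15971597). The same is given for CG4577 (chr2L:1137960-1138199), the peak with the longest fragments among the 8 highest on those arms.
Lsd-2: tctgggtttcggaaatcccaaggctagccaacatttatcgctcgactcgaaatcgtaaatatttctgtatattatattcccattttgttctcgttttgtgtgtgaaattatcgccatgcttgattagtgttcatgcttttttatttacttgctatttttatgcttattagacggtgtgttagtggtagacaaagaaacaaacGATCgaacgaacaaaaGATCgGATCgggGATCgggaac
tay: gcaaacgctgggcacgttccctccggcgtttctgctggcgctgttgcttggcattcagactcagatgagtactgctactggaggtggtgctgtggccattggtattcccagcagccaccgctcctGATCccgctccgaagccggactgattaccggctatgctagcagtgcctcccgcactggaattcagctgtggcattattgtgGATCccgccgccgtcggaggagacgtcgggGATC
brm: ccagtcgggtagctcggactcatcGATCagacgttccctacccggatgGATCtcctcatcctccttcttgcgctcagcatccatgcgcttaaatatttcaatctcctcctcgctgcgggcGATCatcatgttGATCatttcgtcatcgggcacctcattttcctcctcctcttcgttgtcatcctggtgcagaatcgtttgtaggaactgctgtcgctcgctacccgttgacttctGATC
CG4577: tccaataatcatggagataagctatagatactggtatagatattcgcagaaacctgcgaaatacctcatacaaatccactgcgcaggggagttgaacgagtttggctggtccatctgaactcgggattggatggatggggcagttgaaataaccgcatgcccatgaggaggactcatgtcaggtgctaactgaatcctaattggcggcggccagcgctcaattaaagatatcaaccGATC

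The Lsd-2, tay and brm windows held 4, 3 and 5 GATC sites. The CG4577 window, the densest that this peak offered, held 1. The peaks had 10, 7, 10 and 3 fragments, with mean lengths of 138, 135, 114.5 and 936 bp. In CG4577 replicate 3 was 0.728 times the mean of the other libraries.

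**Figure D4:**
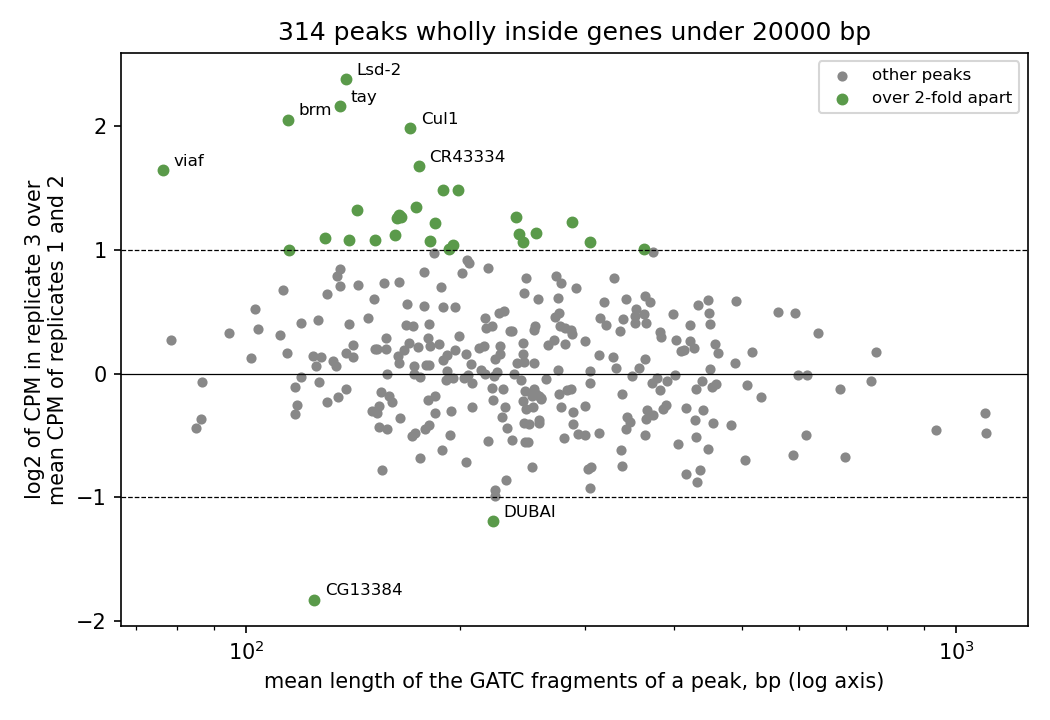
Log2 of CPM in Klu-Dam replicate 3 over the mean of replicates 1 and 2 against the mean length of the GATC fragments of a peak (log axis), with 1 point for each of the 314 peaks and dashed lines at 2-fold. The 29 peaks above the upper line have a median fragment length of 173 bp, and 2 peaks lie below the lower line.

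In 17 genes there were 2 peaks of this kind, so the 314 peaks are not independent regions. The gap between the pair ran from 188 to 7237 bp with a median of 1574 bp. The higher of the pair stood 1.19 to 41.6 times above the other in mean CPM (median 3.04), and in 15 of the 17 genes the same peak was the higher in all 3 libraries. The exceptions were brm and tyf, a gene of the circadian clock. In 4 of the 17 the higher peak was the more 5′ of the pair, and in 10 both midpoints lay in the same kind of feature.

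The widest contrast was in CG43693, with 683, 939 and 860 CPM in an intronic peak and 20.8, 18.8 and 20.2 CPM in another. In otk the lower peak held 1726, 1021 and 1804 CPM, still among the 125 highest coherent peaks. Dap160, the scaffold intersectin, held 876, 834 and 509 CPM in a mainly coding peak and 55.9, 73.0 and 71.7 CPM 449 bp away. dsd held 1214, 943 and 1126 CPM in an intron and 57.9, 57.8 and 29.2 CPM in a coding exon.

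Wnt6, a Wnt ligand, held 455, 494 and 359 CPM in its higher intronic peak and 101, 124 and 93.0 in the other. puc, the phosphatase that restrains JNK signalling, held 154, 178 and 196 CPM in a peak of 4112 bp and 51.3, 63.9 and 84.6 CPM in its neighbour. Lk6, a kinase of the translation factor eIF4E, held 409, 468 and 551 CPM in an intron and 345, 360 and 221 CPM in coding sequence.

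The rest included Atg17, a scaffold of autophagy initiation (158, 203 and 189 against 46.7, 39.3 and 57.1 CPM), and CG1516 (PCB), pyruvate carboxylase (1186, 1344 and 1546 against 547, 561 and 416 CPM). In ens, the microtubule-binding protein ensconsin, the pair held 352, 328 and 237 against 139, 162 and 191 CPM. In clu, which is needed for the distribution of mitochondria, it held 248, 271 and 160 against 73.2, 87.8 and 62.1. The other pairs, in CG13506, CG30389, CG34394 and CG7367, differed 1.70 to 4.74 times in mean CPM. In brm the more 3′ peak held less than the other in replicates 1 and 2 (0.817 and 0.864 times) and 4.76 times as much in replicate 3.

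Genes of 9 lists for pathways of the midgut and for general gene control were looked up. The lists named 411 genes, of which 79 were listed with some coherent peak and 24 (30.4% of the 79) held a peak of this kind. Over all 1678 gene symbols listed with coherent peaks, 297 genes (17.7%) did. The lists were chosen with earlier results of these data known, and each had only 5 to 17 genes with any peak. Their shares are thus descriptions, and no difference from 17.7% was tested. The 25 peaks in these 24 genes had a median mean CPM of 63.2, against 133 for all 314. None of the 12 highest peaks lay in a list gene. None of 10 markers looked up for progenitors (esg, klu, Dl, Sox21a), enterocytes (nub, Myo31DF, betaTry) and enteroendocrine cells (pros, Tk, NPF) held such a peak. Of these, esg, klu and Myo31DF were listed with some peak, though they held none of this kind. So few listed genes allow no statement about the markers as a set.

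The list of the Notch pathway had 1 gene of 6 with any peak, dx, which encodes the Notch regulator Deltex, at 27.3, 33.9 and 21.9 CPM. For Wnt, Hippo and BMP it was 3 of 7: wts, the Hippo pathway kinase warts (305, 430 and 517 CPM), wls, which carries Wnt ligands through secretion (18.4, 29.0 and 57.2), and Notum, which inactivates Wnt ligands (23.4, 32.2 and 32.2). wls was among the 29 peaks more than 2-fold higher in replicate 3. upd3, a cytokine that activates JAK/STAT signalling, was 1 of 7 for JAK/STAT and EGFR (47.2, 54.0 and 81.0 CPM).

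The insulin and TOR list had 2 of 5. Pi3K21B, the regulatory subunit of phosphatidylinositol 3-kinase, held 62.4, 60.1 and 60.4 CPM, with less spread than any other list peak. Pdk1, the kinase downstream of it, held 39.0, 50.4 and 51.0 CPM. CCHa2, a peptide hormone, was 1 of 6 on the progenitor and enteroendocrine list (85.1, 106 and 126 CPM). jar (myosin VI; 67.4, 57.5 and 49.5 CPM) and mys (the βPS integrin; 53.6, 69.4 and 66.7) were 2 of 17 on the list for cytoskeleton, junctions and matrix.

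The cell cycle list had 4 of 11. Incenp, of the chromosomal passenger complex, held 1244, 1265 and 1054 CPM in a peak over 79.4% of the gene. Dp, the partner of E2F, held 343, 454 and 350 CPM across 2 transcript starts of that gene. fzy, the Cdc20 activator of the anaphase-promoting complex (63.1, 65.8 and 83.3 CPM), and tws, a regulatory subunit of protein phosphatase 2A (52.6, 67.0 and 70.1), were lower by an order of magnitude than Incenp.

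The chromatin list had the highest share, 6 of 9 genes, with 7 peaks at a median of 402 CPM. Su(z)12, a subunit of Polycomb repressive complex 2, held 1313, 1372 and 1054 CPM, mainly in coding sequence. lid (Kdm5), a histone H3K4 demethylase, held 670, 781 and 1100 CPM across the match printed above. The more 5′ peak in brm held 413, 469 and 324 CPM. Spt6, a transcription elongation factor (45.7, 66.1 and 66.2), the insulator protein CTCF (37.5, 45.9 and 65.6) and Psc, of Polycomb repressive complex 1 (38.5, 44.5 and 54.1), formed a lower group in which the ranges overlapped.

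On the list for RNA binding and translation there were 4 of 11. sbr, which exports mRNA from the nucleus, was the highest list peak and among the less even ones, with 1777, 1043 and 2413 CPM in an intron that another reference gene, CG15209, overlapped. tral, a component of cytoplasmic RNP granules, held 192, 223 and 185 CPM. eIF-4a, the helicase of translation initiation, held 91.7, 116 and 76.0 CPM, and rin, the fly homologue of the stress granule protein G3BP, 24.6, 31.4 and 21.3.

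**Figure D5:**
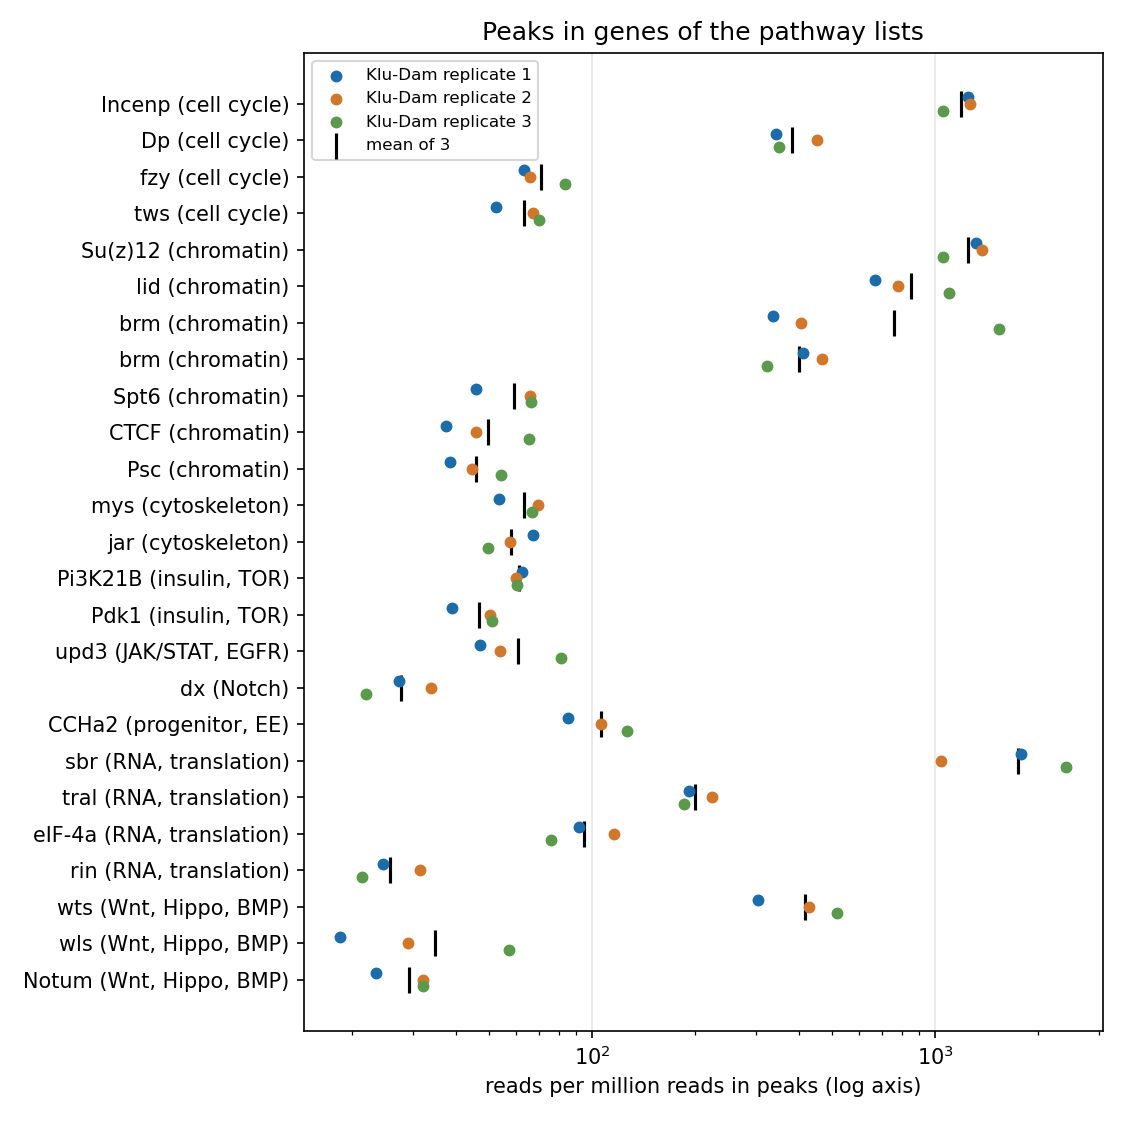
CPM (log axis) in each Klu-Dam replicate of the 25 peaks in genes of the 9 lists, grouped by list, with a bar for the mean of 3. The peaks range from 25.8 CPM in rin to 1744 in sbr, and replicate 3 stands apart for the upper brm peak.

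At the length limit, the 2 longest genes included were CG14441 (19882 bp), with 76.2, 117 and 135 CPM, and Pka-R1 (19931 bp), the regulatory subunit of protein kinase A, with 254, 259 and 246 CPM. The 2 shortest left out were RhoGAP71E (20266 bp), with 316, 367 and 315 CPM, and Grip (20421 bp), with 642, 666 and 650 CPM. The limit thus divided a continuous range of lengths.

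The semicoherent set of 1250 peaks had 346 peaks of this kind. Of the 314, 230 had the same edges there, within the 2 bp by which starts were offset, and 218 of those had identical counts. In 42 cases a semicoherent peak of this kind overlapped no coherent peak. The highest of these was in CG2263 (alpha-PheRS in the reference), the alpha subunit of a phenylalanyl-tRNA synthetase, with 2635, 2758 and 2917 CPM of that set, followed by CG1801 (1172, 1189 and 1268) and CG1646 (Prp39), a splicing factor gene (1087, 812 and 890). The first of these 3 would have ranked 78 of the 1250.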

How the data were processed

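Methylated GATC fragments of 3 Klu-Dam and 3 Dam-only samples were amplified and sequenced. According to the methods of the study, the authors aligned single-end reads to dm6 with bowtie2 inside damidseq_pipeline, called peaks from log2 ratios of Klu-Dam over Dam-only on GATC fragments, kept reproducible peaks and attached genes within 2 kb with a script of their own. The deposited tables gave, for each Klu-Dam library, the raw counts of reads in every peak, with no correction for depth, width or the Dam-only signal. How the authors counted reads over peaks, and what separates coherent from semicoherent peaks, is not stated in those sources. Each count column was matched to its library by replicate number, with 0 sample columns left out. Gene lists without values were not used.

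Entries (1900) were reduced to distinct peaks. Counts were divided by the sum over all peaks of the set (CPM), which hides any change common to all peaks, and classes were compared on log2 CPM per kb. Where a gene was listed with 2 intervals the longer was used. Starts in the tables counted from 0 and are given from 1. Genes were matched to Ensembl release 115 by identifier, then by place. Features were ordered coding exon, 5′ UTR, 3′ UTR, non-coding exon and intron over all transcripts of a gene. Sequence came from the Release 6 genome in RefSeq. Differences between classes were tested by an exact two-sided sign-flip permutation over the 3 libraries, with Benjamini-Hochberg adjustment over 3 comparisons. The samples share only their isolation dates as a pairing. The p-values rest on the signs and sizes of the differences in the 3 libraries, and leave out the spread among peaks.

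Named genes were those of the 12 highest and 5 lowest peaks by mean CPM, the 5 with the largest CV, all list genes, the 2 on either side of the length limit, genes with 2 peaks, and those shown as sequence. The members and lists were chosen with earlier results of these data known. Statistics were tested on simulated data. Alternatives were leaving out each replicate, the semicoherent set, limits of 15000 and 25000 bp, peaks free of other genes, other units, windows and bounds. Analyses ran in Python 3.11.15 with scipy 1.17.1, pandas 2.3.3, numpy 2.4.6 and matplotlib 3.10.9.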

Additional observations from a re-analysis of the deposited data

How the results depend on the processing

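No paired analysis was possible because Klu-Dam counts alone were analysed, and no other group with the same replicate numbers entered a comparison.

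The share of reads held by peaks inside genes under 20000 bp was 20.2% in the semicoherent set, 16.9% and 26.5% with limits of 15000 and 25000 bp, 18.1% without peaks that another reference gene overlaps and 15.5% for peaks listed with 1 gene only, the last chosen after seeing the data. Each of these sets holds other peaks by construction. The log2 difference from peaks inside longer genes was -0.32 per GATC fragment, opposite to its sign per kb, and 0.04 in the semicoherent set (exact permutation p = 0.75), against 0.21 per kb in the coherent set, and the cause was not tested. The difference from peaks crossing 1 gene edge was -0.42 in the semicoherent set. The difference from peaks touching several genes was -0.28 in that set and 0.11 for peaks listed with 1 gene only, and ranged from -0.12 to 0.0044 with 1 replicate left out, the highest without replicate 1. The median CV ranged from 10.2% (without replicate 3) to 19.8% (without replicate 2), both over 2 libraries. The share with GCGTGGG was 21% over whole peaks. Of the mean CPM values of the 12 highest peaks and the peaks in listed genes, 1 moved by over 1.5 times with a replicate left out, that of the brm peak of 1145 bp, which went from 761 to 371 CPM without replicate 3. Scaling by library totals or by the median ratio, added after seeing the data, gave 26 peaks over 2-fold higher and 3 lower in replicate 3, against 29 and 2. The limits are that 3 libraries allow no p under 0.25, that no Dam-only count was used here, and that GATC spacing sets the resolution.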
